A study of Rattus norvegicus with 16 samples.

Results

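The genes described here run the calcium store of the muscle fibre, the sarcoplasmic reticulum: phospholamban (Pln), sarcolipin (Sln), the calcium pumps SERCA1 (Atp2a1) and SERCA2 (Atp2a2), the calsequestrins (Casq1 and Casq2), sarcalumenin (Srl), the ryanodine receptor (Ryr1), Stac3 and Stim1. They were taken by gene symbol from the annotation of the array, and all 10 of 10 were measured among 10416 genes tested. They had 19 of 31042 probe sets other than controls. The probe set with the highest mean over all arrays that passed a filter on low values stood for each gene.

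Messenger RNA was measured in rats (Rattus norvegicus) in 4 groups of 4 arrays. These were the neuromuscular junctions of rectus extraocular muscle, which moves the eye (EOM_synapse), fibre regions of the same muscle away from the junction (EOM_fiber), and the corresponding regions of tibialis anterior, a limb muscle of the lower leg (TA_synapse and TA_fiber). The study used 4 rats, all killed by inhaled CO2. The numbers 15, 25, 27 and 29 in the titles were read as these rats, so that each gave 1 array to every group. Strain, age and sex are not given in the sources used here. No group carried an engineered allele or a drug. About 1000 junctions, seen by acetylcholinesterase staining of 10 µm sections, and as much junction-free material were laser captured from each muscle. A captured junction also holds nerve terminal, Schwann cells and connective tissue, and a fibre region pools fibres of every type in the section.

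A muscle fibre contracts when a voltage sensor in its membrane opens the ryanodine receptor of the sarcoplasmic reticulum and calcium flows out. Calsequestrin and sarcalumenin bind calcium inside the store, and the SERCA pumps return it, more slowly where phospholamban or sarcolipin binds the pump. Stim1 senses an emptied store and opens calcium entry from outside. SERCA1 and calsequestrin 1 are the usual forms of fast skeletal fibres, while SERCA2, phospholamban and calsequestrin 2 are best known from heart and slow fibres.

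Each value is log2(intensity + 16) after quantile normalization. Groups are summarised by the mean ± SD of 4 arrays and compared by log2 differences ± SE, from limma with the rat as a block. Adjusted p-values are Benjamini-Hochberg values over all 10416 genes, and a gene is called at an adjusted p under 0.05. The scale understates the change of a dim gene, and levels of different genes were not set against each other. Before normalization and filter, correlations of log2(intensity + 16) between arrays of 1 group ran from 0.867 to 0.949. All 10 of the listed skeletal fibre markers were measured. Less RNA per fibre and fewer fibres of a type cannot be told apart in captured tissue.

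The promoters of Pln, Casq1 and Casq2 are shown because much of what follows turns on these 3 genes: the pump inhibitor with the largest difference between the muscles in fibre, and the calsequestrins of fast and of slow fibres. Of the 10 genes, 8 had an entry in the RefSeq promoter table (build GRCr8), and Sln and Srl are named only. Each line gives the 250 bases before the annotated start, 5′ to 3′ on the strand of the gene, with E-box letters (CANNTG, which reads the same on both strands) and the MEF2 motif in capitals.
Pln, chr20:33172244-33172493, plus strand: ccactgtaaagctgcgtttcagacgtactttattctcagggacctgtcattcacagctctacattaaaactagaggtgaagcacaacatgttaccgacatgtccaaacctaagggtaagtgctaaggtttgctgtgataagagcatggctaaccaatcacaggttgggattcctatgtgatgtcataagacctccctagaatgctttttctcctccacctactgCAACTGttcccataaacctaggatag
Casq1, chr13:87212711-87212960, minus strand: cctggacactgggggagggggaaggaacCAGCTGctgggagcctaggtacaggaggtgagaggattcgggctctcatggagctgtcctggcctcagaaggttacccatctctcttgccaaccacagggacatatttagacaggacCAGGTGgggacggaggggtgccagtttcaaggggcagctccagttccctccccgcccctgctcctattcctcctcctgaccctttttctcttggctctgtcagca
Casq2, chr2:192214306-192214555, plus strand: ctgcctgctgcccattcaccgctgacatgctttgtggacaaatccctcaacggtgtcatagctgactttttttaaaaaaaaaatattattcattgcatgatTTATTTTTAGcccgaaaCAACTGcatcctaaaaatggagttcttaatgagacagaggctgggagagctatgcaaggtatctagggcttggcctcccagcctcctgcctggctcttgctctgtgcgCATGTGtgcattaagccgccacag

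An E-box was found in all 8 of 8 member promoters, against 65.5% of 33465 promoters of this length. The MEF2 motif, searched on both strands, was found in 1 of 8, that of Casq2, against 2.96%. The N-box letters CCGGAA, also searched on both strands, were found in 0 of 8, against 12.6%. These matches describe letters in the window and not bound sites.

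**Figure D1:**
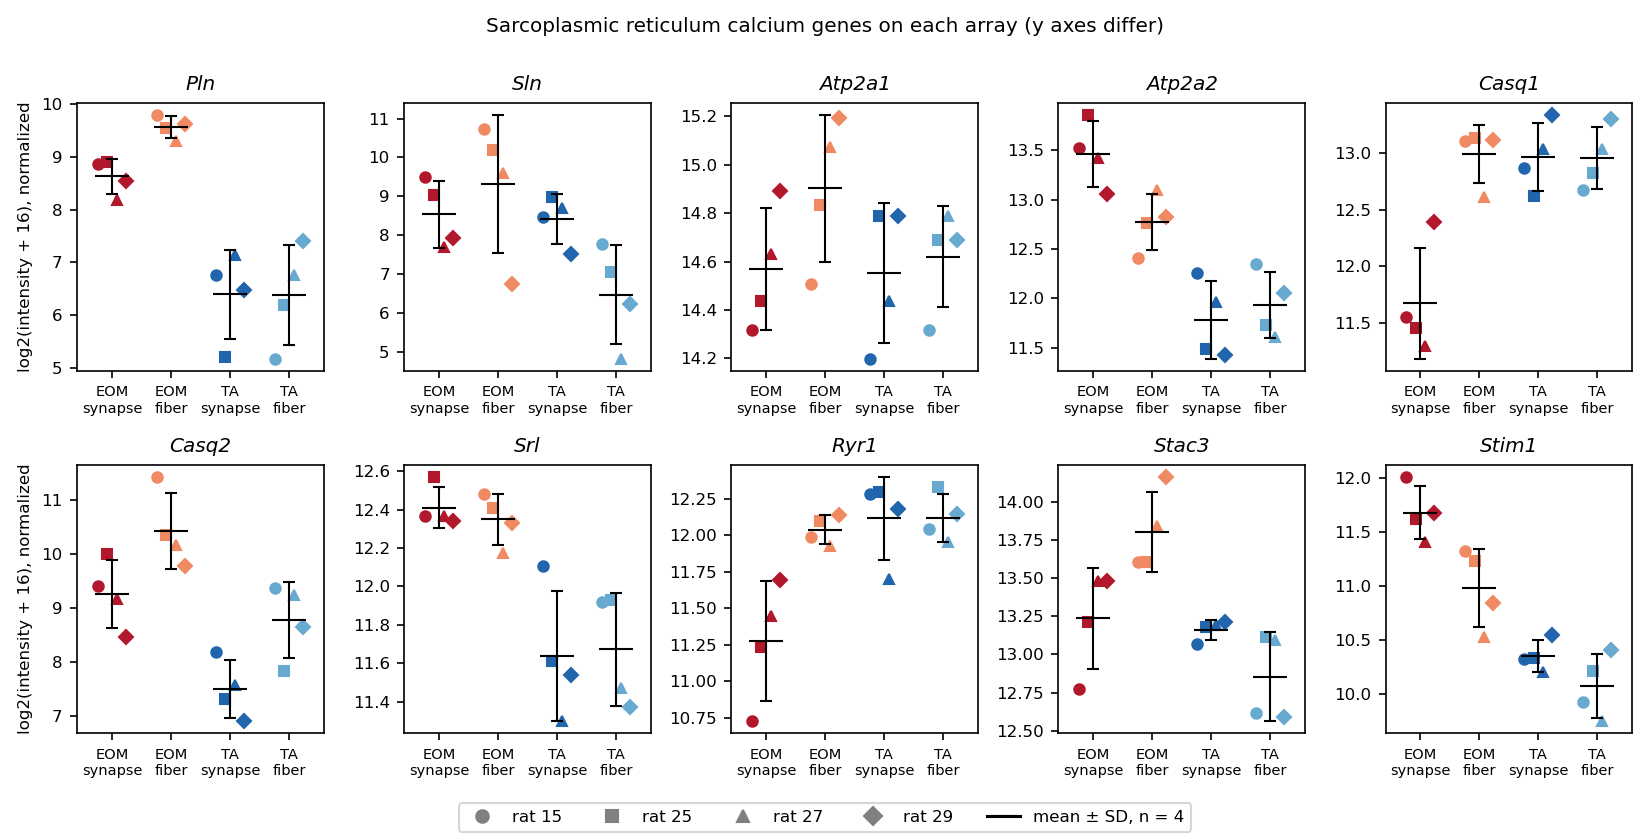
Quantile-normalized log2(intensity + 16) of the 10 genes, 1 panel a gene. Points are the 4 rats of each group, bars are means ± SD. Every EOM_fiber array of Pln, at 9.30 to 9.79, lies above every TA_fiber array, and the EOM_synapse arrays of Casq1 lie below those of the other groups.

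In fibre regions the inhibitors of the pumps had the largest differences of the 10 genes between the muscles. Away from the junction, Pln had 9.79, 9.54, 9.30 and 9.63 in EOM_fiber (rats 15, 25, 27 and 29, in that order here and below), against 5.18, 6.19, 6.76 and 7.41 in TA_fiber. At the junction it had 8.86, 8.91, 8.19 and 8.55 in EOM_synapse, against 6.77, 5.20, 7.14 and 6.48 in TA_synapse. The EOM arrays lay above the TA arrays in both regions with no overlap, and the TA arrays were the more spread out. Pln was 3.18 ± 0.44 higher in EOM_fiber than in TA_fiber (9.07-fold, adjusted p = 0.000299) and 2.23 ± 0.44 higher in EOM_synapse than in TA_synapse (4.69-fold, adjusted p = 0.0032), each in 4 of 4 rats. That probe set lay above the array median in 8 of 8 EOM arrays and 6 of 8 TA arrays. A second Pln probe set gave differences of 3.57 and 2.97, but it lay above the array median in only 3 of 8 TA arrays and passed the filter through EOM, so these values are a description and no further support. Within EOM, Pln averaged 8.63 ± 0.33 in EOM_synapse and 9.56 ± 0.20 in EOM_fiber, and all 4 rats had the lower value at the junction. That difference of -0.94 ± 0.44 missed the threshold (adjusted p = 0.2), and with a pseudocount of 64 it was called (adjusted p = 0.0246). Within TA the junction difference was 0.01 ± 0.44 (adjusted p = 0.99).

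Sln, the other small membrane protein that binds SERCA, had 10.73, 10.19, 9.61 and 6.74 in EOM_fiber, against 7.78, 7.06, 4.82 and 6.22 in TA_fiber. The EOM_fiber array of rat 29 stood well below the other 3 and inside the TA_fiber range, so these groups overlapped. As deposited, that array read 92.3 in linear intensity, and the TA_fiber array of rat 27 read 9.53. Sln was 2.85 ± 0.53 higher in EOM_fiber (7.20-fold, adjusted p = 0.00259), in 4 of 4 rats by 0.52 to 4.79. At the junction, Sln had 9.49, 9.03, 7.71 and 7.94 in EOM_synapse, against 8.47, 8.99, 8.69 and 7.51 in TA_synapse, and the groups overlapped (0.12 ± 0.53, adjusted p = 0.907). Within TA it was 1.95 ± 0.53 higher in TA_synapse, at 8.42 ± 0.64, than in TA_fiber, at 6.47 ± 1.27 (3.86-fold, adjusted p = 0.0318, 4 of 4 rats). That call was lost without TA_fiber of rat 25 or 27 or TA_synapse of rat 25, 27 or 29 (adjusted p 0.0681 to 0.117), and without the rat block (0.123). Over the 20 fits that left out an array or a whole rat, the call held in 12 (adjusted p up to 0.185). In EOM the junction difference of Sln was -0.78 ± 0.53 (adjusted p = 0.397), negative in 3 of 4 rats. The difference between the junction effects, EOM minus TA, was -2.72 ± 0.75 and missed the threshold (adjusted p = 0.127), although it was negative in all 4 rats. It was called without EOM_fiber of rat 29 (adjusted p = 0.0132).

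Of the pumps, the fast form Atp2a1 passed the test in 0 of 5 contrasts by limma, and in 0 of 5 at an unadjusted p under 0.05. It averaged 14.57 ± 0.25 in EOM_synapse, 14.90 ± 0.30 in EOM_fiber, 14.55 ± 0.29 in TA_synapse and 14.62 ± 0.21 in TA_fiber. Values this bright can be made equal by quantile normalization, which hides differences between arrays. The TA_fiber arrays of rats 25 and 29 read 47020.1 and 26011.1 as deposited, and both had 14.6889 after it. The lack of calls is therefore limited by the scale. The difference farthest from 0 was -0.33 ± 0.17 between EOM_synapse and EOM_fiber (adjusted p = 0.242). On the values as deposited it was -0.802 ± 0.243, lower in 4 of 4 rats (adjusted p = 0.0535). The differences between the muscles changed sign with the scaling, from 0.28 to -0.0477 as deposited in fibre and from 0.02 to -0.367 at the junction. The slow and cardiac form, Atp2a2, had 13.52, 13.86, 13.42 and 13.05 in EOM_synapse, against 12.25, 11.48, 11.96 and 11.43 in TA_synapse. Away from the junction it had 12.41, 12.76, 13.10 and 12.82 in EOM_fiber, against 12.34, 11.73, 11.60 and 12.05 in TA_fiber. Every EOM array exceeded every TA array of its region. Atp2a2 was 1.68 ± 0.26 higher in EOM_synapse than in TA_synapse (3.21-fold, adjusted p = 0.000567) and 0.84 ± 0.26 higher in EOM_fiber than in TA_fiber (1.79-fold, adjusted p = 0.0396).

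The fibre call of Atp2a2 was weak. It was lost on the values as deposited (adjusted p = 0.093) and with median-centred arrays (0.48, adjusted p = 0.34). It was also lost without EOM_fiber of rat 25, 27 or 29, TA_fiber of rat 25 or 27, or EOM_synapse of rat 15 or 27 (adjusted p 0.0511 to 0.134). With whole rats left out as well, it held in 10 of 20 fits (adjusted p up to 0.235). In the fit over all probe sets, which adjusts over more tests, the same probe set had an adjusted p of 0.0546 in fibre. The further probe sets of Atp2a2 that passed the filter gave fibre differences of 1.26 ± 0.38 (adjusted p = 0.0442), 1.15 (adjusted p = 0.155) and 0.36 (adjusted p = 0.534), and junction differences of 0.89 (adjusted p = 0.146), 1.61 (adjusted p = 0.0485) and 0.26 (adjusted p = 0.679). All were positive, and their sizes differed. Within EOM, Atp2a2 was higher at the junction in 4 of 4 rats by 0.69 ± 0.26, which missed the threshold (adjusted p = 0.106).

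**Figure D2:**
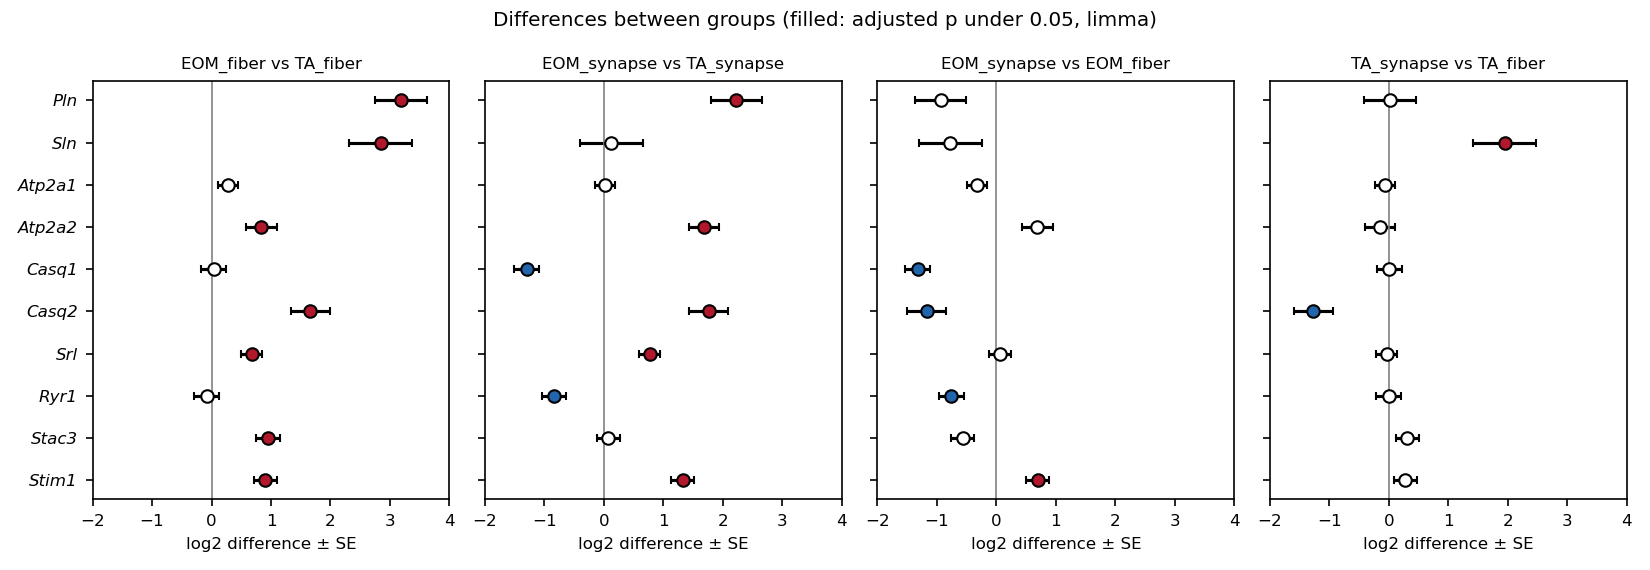
Log2 difference ± SE of the 10 genes in 4 comparisons, with filled symbols at an adjusted p under 0.05. Pln, Atp2a2, Casq2, Stim1 and Srl are to the right of 0 and called in both comparisons of the muscles, and Casq1 and Ryr1 are to the left where EOM_synapse is compared.

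The calcium buffers of the store did not differ in the same way. Casq1, the calsequestrin of fast fibres, had 11.55, 11.45, 11.29 and 12.39 in EOM_synapse, against 13.11, 13.14, 12.61 and 13.12 in EOM_fiber. TA_synapse held 12.86, 12.62, 13.04 and 13.34, and TA_fiber held 12.67, 12.82, 13.03 and 13.30. The EOM junction alone lay below the other 3 groups, with no array overlapping them. Casq1 fell by 1.32 ± 0.21 in EOM_synapse relative to EOM_fiber (adjusted p = 0.00126) and was lower by 1.30 ± 0.21 than in TA_synapse (adjusted p = 0.000869), in 4 of 4 rats each. Between TA_synapse and TA_fiber the difference was 0.01 ± 0.21 (adjusted p = 0.986), and between EOM_fiber and TA_fiber 0.04 ± 0.21 (adjusted p = 0.933). The junction effect in EOM minus that in TA was -1.33 ± 0.30, negative in 4 of 4 rats, and missed the threshold narrowly (adjusted p = 0.0544). With a robust prior it was called (adjusted p = 0.00279).

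Casq2, the calsequestrin of heart and slow fibres, was higher in EOM in both regions. It had 11.42, 10.34, 10.16 and 9.77 in EOM_fiber, against 9.37, 7.82, 9.23 and 8.64 in TA_fiber. At the junction it had 9.40, 10.00, 9.15 and 8.46 in EOM_synapse, against 8.19, 7.31, 7.58 and 6.90 in TA_synapse. The muscles did not overlap in either region. Casq2 was 1.66 ± 0.33 higher in EOM_fiber (3.15-fold, adjusted p = 0.00399) and 1.76 ± 0.33 higher in EOM_synapse (3.39-fold, adjusted p = 0.00242). This probe set lay above the array median on all 16 arrays. A second one gave 2.40 and 1.96, but it did so in only 2 of 8 TA arrays and passed the filter through EOM, so these values are a description only.

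Casq2 was also lower at the junction than away from it, in 4 of 4 rats of each muscle, although the groups overlapped in both. It fell by 1.17 ± 0.33 in EOM_synapse (adjusted p = 0.0381) and by 1.27 ± 0.33 in TA_synapse (adjusted p = 0.0241). These calls were fragile. In EOM, where the second probe set was above the median on all 8 arrays, it gave -0.64 (adjusted p = 0.518). The EOM call was lost without EOM_fiber of rat 15, 25 or 29, EOM_synapse of rat 15, 27 or 29, or TA_synapse of rat 15 or 25 (adjusted p 0.0514 to 0.14). The TA call was lost without TA_fiber of rat 15, 27 or 29 or any 1 TA_synapse array (adjusted p 0.055 to 0.0941). With whole rats left out as well, the EOM call held in 9 of 20 fits (adjusted p up to 0.264). The TA call held in 10 of 20 (adjusted p up to 0.147). Without the rat block the values were 0.0954 in EOM and 0.0674 in TA.

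Srl, whose product sarcalumenin binds calcium in the store, averaged 12.41 ± 0.11 in EOM_synapse and 11.64 ± 0.34 in TA_synapse. Away from the junction it averaged 12.35 ± 0.13 in EOM_fiber and 11.67 ± 0.29 in TA_fiber. It was higher in EOM by 0.77 ± 0.18 at the junction (1.71-fold, adjusted p = 0.00902) and by 0.68 ± 0.18 away from it (1.60-fold, adjusted p = 0.0195). The fibre call was lost with median-centred arrays (0.35, adjusted p = 0.381) and on the values as deposited (0.499, adjusted p = 0.0559). It was also lost without EOM_fiber or TA_fiber of rat 27 or 29 (adjusted p 0.0514 to 0.0681). With whole rats left out as well, it held in 13 of 20 fits (adjusted p up to 0.131). The junction call held without any single array and was lost without rat 25, 27 or 29 (adjusted p 0.0635 to 0.0934), and with median-centred arrays (0.529, adjusted p = 0.168). Srl did not differ detectably between junction and fibre region, at 0.06 ± 0.18 in EOM (adjusted p = 0.87) and -0.03 ± 0.18 in TA (adjusted p = 0.941).

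Of the release machinery, Ryr1, the calcium release channel, had 10.73, 11.24, 11.45 and 11.69 in EOM_synapse, against 11.99, 12.10, 11.92 and 12.14 in EOM_fiber. TA_synapse held 12.29, 12.30, 11.70 and 12.18, and TA_fiber averaged 12.12 ± 0.16. As with Casq1, the EOM junction lay below the other groups without overlap. Ryr1 was lower in EOM_synapse by 0.84 ± 0.21 than in TA_synapse (adjusted p = 0.0138) and fell by 0.76 ± 0.21 relative to EOM_fiber (adjusted p = 0.0335). Neither call was firm. The first was lost without EOM_synapse of rat 15 or 25 or TA_synapse of rat 15 (adjusted p 0.0518 to 0.0578). The second was lost without any 1 EOM_fiber array or EOM_synapse of rat 15 or 25 (adjusted p 0.0576 to 0.123). With whole rats left out as well, the first held in 15 of 20 fits (adjusted p up to 0.105). The second held in 10 of 20 (adjusted p up to 0.171). Ryr1 did not differ detectably in the other comparisons, at -0.08 ± 0.21 between EOM_fiber and TA_fiber (adjusted p = 0.837) with group means of 12.12 in both TA_synapse and TA_fiber (adjusted p = 0.996).

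Stac3, the adaptor that couples the voltage sensor to the release channel, had its highest mean in EOM_fiber. It had 13.61, 13.61, 13.85 and 14.17 in EOM_fiber, against 12.62, 13.12, 13.10 and 12.59 in TA_fiber, with no overlap. It was 0.95 ± 0.20 higher in EOM_fiber (1.93-fold, adjusted p = 0.00489). The call was lost without rat 29 (adjusted p = 0.0543) and with median-centred arrays (0.571, adjusted p = 0.127). At the junction the muscles did not differ detectably, at 13.24 ± 0.33 in EOM_synapse and 13.16 ± 0.07 in TA_synapse (adjusted p = 0.842). Within EOM the junction was lower by 0.57 ± 0.20 in 4 of 4 rats, which missed the threshold (adjusted p = 0.0847), and it was called on the values as deposited (adjusted p = 0.0115).

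Stim1, the sensor of an emptied store, was higher in EOM in both regions. It had 12.01, 11.63, 11.41 and 11.68 in EOM_synapse, against 10.33, 10.33, 10.21 and 10.55 in TA_synapse. Away from the junction it had 11.32, 11.23, 10.54 and 10.84 in EOM_fiber, against 9.93, 10.22, 9.76 and 10.41 in TA_fiber. The muscles did not overlap in either region, and EOM_synapse had the highest mean. Stim1 was 1.33 ± 0.19 higher in EOM_synapse (2.51-fold, adjusted p = 0.000405) and 0.90 ± 0.19 higher in EOM_fiber (1.87-fold, adjusted p = 0.00625). The fibre call was lost without rat 15 (adjusted p = 0.0551) and with median-centred arrays (0.645, adjusted p = 0.112). Within EOM it was 0.70 ± 0.19 higher at the junction (1.62-fold, adjusted p = 0.0356), a call lost without EOM_fiber of rat 27 or 29 or any 1 EOM_synapse array (adjusted p 0.0609 to 0.119), and on the values as deposited (0.551, adjusted p = 0.094). With whole rats left out as well, that call held in 10 of 20 fits (adjusted p up to 0.165). In TA the junction difference of Stim1 was 0.28 ± 0.19 (adjusted p = 0.44). Of the other Stim1 probe sets, one gave 1.53 (adjusted p = 0.00505) at the junction and 0.93 (adjusted p = 0.0656) away from it. The last gave 0.65 (adjusted p = 0.192) and 0.36 (adjusted p = 0.5).

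**Figure D3:**
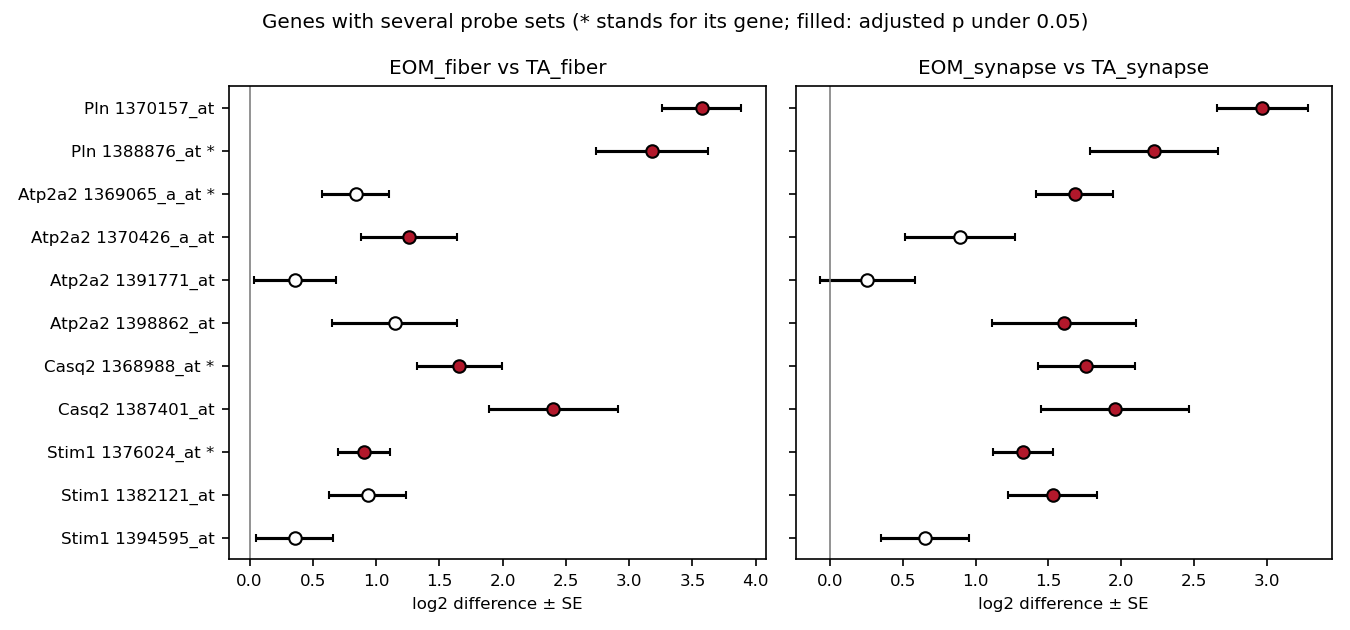
Log2 difference ± SE of EOM minus TA in fibre and in junction regions for each probe set of Pln, Atp2a2, Casq2 and Stim1 that passed the filter, in the fit over all probe sets (filled: adjusted p under 0.05). In fibre the Pln probe set standing for the gene lies at 3.18, and the Atp2a2 probe sets spread from 0.36 to 1.26. The second Pln and Casq2 probe sets lay above the array median in only 3 and 2 of 8 TA arrays. They passed the filter through EOM, so their points, at 3.57 for Pln in fibre, are a description only.

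The members and the gene lists were chosen with earlier results of these data known. Their counts, here and below, therefore describe the lists and do not test them. Counted over the 10 genes, EOM_fiber against TA_fiber gave 7 higher and 0 lower, and 7 and 0 at an unadjusted p under 0.05, which 29.5% of all genes reached. The 7 were Pln, Sln, Atp2a2, Casq2, Stac3, Stim1 and Srl, with a median difference over the 10 of 0.872, against 0.026 over all genes. Of all genes, 15.6% were called in this comparison, 8.4% as higher and 7.15% as lower. The arrays of the muscles did not overlap for 6 of the 10, all higher, as they did for 16.4% of all genes (8.39% higher and 7.98% lower). EOM_synapse against TA_synapse gave 5 higher (Pln, Atp2a2, Casq2, Stim1 and Srl) and 2 lower (Casq1 and Ryr1), with a median of 0.447, against 0.00551. There 16.4% of all genes were called, 7.82% as higher and 8.61% as lower. Here the arrays did not overlap for the 7 called members, against 22.8% of all genes (11% higher and 11.8% lower). In fibre, 4 members were called without rat 29. With median-centred arrays, or with only the fibre arrays in the fit, 3 were (Pln, Sln and Casq2). At the junction, median centring left 6, all of the 7 but Srl.

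Within the muscles fewer members were called. EOM_synapse against EOM_fiber gave 1 higher (Stim1) and 3 lower (Casq1, Casq2 and Ryr1), with a median of -0.664, against -0.0389 over all genes. There 10.1% of all genes were called, 5.62% as higher and 4.51% as lower. The arrays did not overlap for 5 members, Stim1 as higher and Casq1, Pln, Ryr1 and Stac3 as lower, against 17.1% of all genes (8.19% higher and 8.92% lower). With median-centred arrays Casq1 and Stac3 were called and Casq2, Ryr1 and Stim1 were not. TA_synapse against TA_fiber gave 1 higher (Sln) and 1 lower (Casq2), with a median of 0.00322, against -0.0127 over all genes. There 10.2% of all genes were called, 6.7% as higher and 3.53% as lower. The arrays overlapped for all 10 members, against 13.2% of all genes without overlap (7.62% higher and 5.61% lower). For the difference of the junction effects, limma called 0 of 10, and 0.922% of all genes (0.259% higher and 0.662% lower), with 5 of the 10 at an unadjusted p under 0.05, which 10.7% of all genes reached. With a robust prior 3 were called (Casq1, Sln and Stac3, adjusted p 0.00279 to 0.0428), and with a pseudocount of 64, 2 were. A gene called in 1 muscle and not in the other is therefore not shown to differ between them.

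The other genes of excitation-contraction coupling and calcium handling were taken from a list of 46, of which 41 were measured. In EOM_fiber against TA_fiber, 3 of 41 were higher and 5 lower, against 8.4% and 7.15% of all genes, with a median of -0.101. S100a1, a calcium-binding protein that acts on the release channel, was 1.56 ± 0.28 higher (adjusted p = 0.00193), and parvalbumin (Pvalb), a buffer of the fibre's cytosol, was 1.07 ± 0.21 higher (adjusted p = 0.0035, and 0.0509 without the rat block). The adaptor Homer2 was lower by 1.44 ± 0.23 (adjusted p = 0.000996). Asph, whose products include junctin, was lower by 1.23 ± 0.23 (adjusted p = 0.00258), and over the mean of its probe sets by 0.53 (adjusted p = 0.0821). Which of its products the probe set reads was not examined. In EOM_synapse against TA_synapse, 4 were higher and 10 lower, against 7.82% and 8.61% of all genes, with a median of -0.168. Ryr3, a second release channel, averaged 7.92 in EOM_synapse and 6.21 in TA_synapse (1.71 ± 0.41, adjusted p = 0.0121), and the call was lost without EOM_synapse of rat 27 (adjusted p = 0.0514). With whole rats left out as well, the call held in 17 of 20 fits (adjusted p up to 0.072).

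On the probe set standing for each gene, the largest falls in EOM_synapse against TA_synapse were those of Asph and the kinase Camk2d. Asph differed by -2.44 ± 0.23 (adjusted p = 1.05e-05) and Camk2d by -2.20 ± 0.23 (adjusted p = 3.54e-05). The lower genes of EOM_synapse included parts of the triad, the membrane contact where release is triggered. Cacna1s, the voltage sensor, averaged 8.14 in EOM_synapse and 9.58 in TA_synapse (-1.44 ± 0.26, adjusted p = 0.00201). Junctophilin 2 (Jph2), which ties the membranes of the triad together, averaged 9.21 in EOM_synapse and 10.77 in TA_synapse (-1.56 ± 0.26, adjusted p = 0.00102). Against EOM_fiber, 3 of 41 were higher and 10 lower in EOM_synapse, against 5.62% and 4.51% of all genes, with a median of -0.188. Cacna1s had 7.87, 8.20, 8.10 and 8.41 in EOM_synapse, against 9.11, 10.20, 10.05 and 10.11 in EOM_fiber, with no overlap (-1.72 ± 0.26, adjusted p = 0.000922). Jph2 had 9.15, 9.22, 9.17 and 9.31 in EOM_synapse, against 11.17, 10.31, 10.29 and 10.48 in EOM_fiber (-1.35 ± 0.26, adjusted p = 0.00459). S100a1 was lower by 1.36 ± 0.28 (adjusted p = 0.00715, and 0.0749 without rat 15). Calnexin (Canx), a calcium-binding chaperone, was higher by 0.91 ± 0.19 (adjusted p = 0.00918), a call lost without rat 15 (0.09) or rat 27 (0.0566).

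In TA_synapse against TA_fiber, 3 of 41 were higher and 1 was lower, against 6.7% and 3.53% of all genes, with a median of -0.128. Camk2d, a calcium-dependent kinase, had 11.69, 11.68, 12.26 and 11.30 in TA_synapse, against 9.87, 10.26, 10.17 and 9.75 in TA_fiber, with no overlap (1.72 ± 0.23, adjusted p = 0.000295). With its probe set of largest spread the difference was 1.10 (adjusted p = 0.103). Fkbp1a, a protein bound to the ryanodine receptor, averaged 12.35 in TA_synapse and 11.29 in TA_fiber (1.05 ± 0.18, adjusted p = 0.00199, and 0.054 with median-centred arrays). Homer2 averaged 6.03 in TA_synapse and 7.54 in TA_fiber (-1.51 ± 0.23, adjusted p = 0.00085). Saraf was higher at the junction in TA (1.01 ± 0.23, adjusted p = 0.0139) and in EOM (0.98 ± 0.23, adjusted p = 0.0171). It was also higher in EOM than in TA, by 0.77 in fibre (adjusted p = 0.0395) and 0.74 at the junction (adjusted p = 0.0447). The calls of Saraf between the muscles held in only 7 and 5 of the 20 fits that left out an array or a rat. For the difference of the junction effects 1 of 41 was called, against 0.922% of all genes. This was Camk2d (-1.66 ± 0.33, adjusted p = 0.0314). That call was lost without any 1 EOM_synapse array, EOM_fiber of rat 27 or 29, TA_fiber of rat 15, 27 or 29, or TA_synapse of rat 15, 25 or 27 (adjusted p 0.056 to 0.0831). With whole rats left out as well, that call held in only 4 of 20 fits (adjusted p up to 0.276). With the probe set of largest spread it was -0.941 (adjusted p = 0.622). The inositol trisphosphate receptors and triadin (Trdn), which holds calsequestrin to the release channel, were not called in any comparison. For Itpr3 the difference between EOM_synapse and TA_synapse was 1.16 (adjusted p = 0.068).

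**Figure D4:**
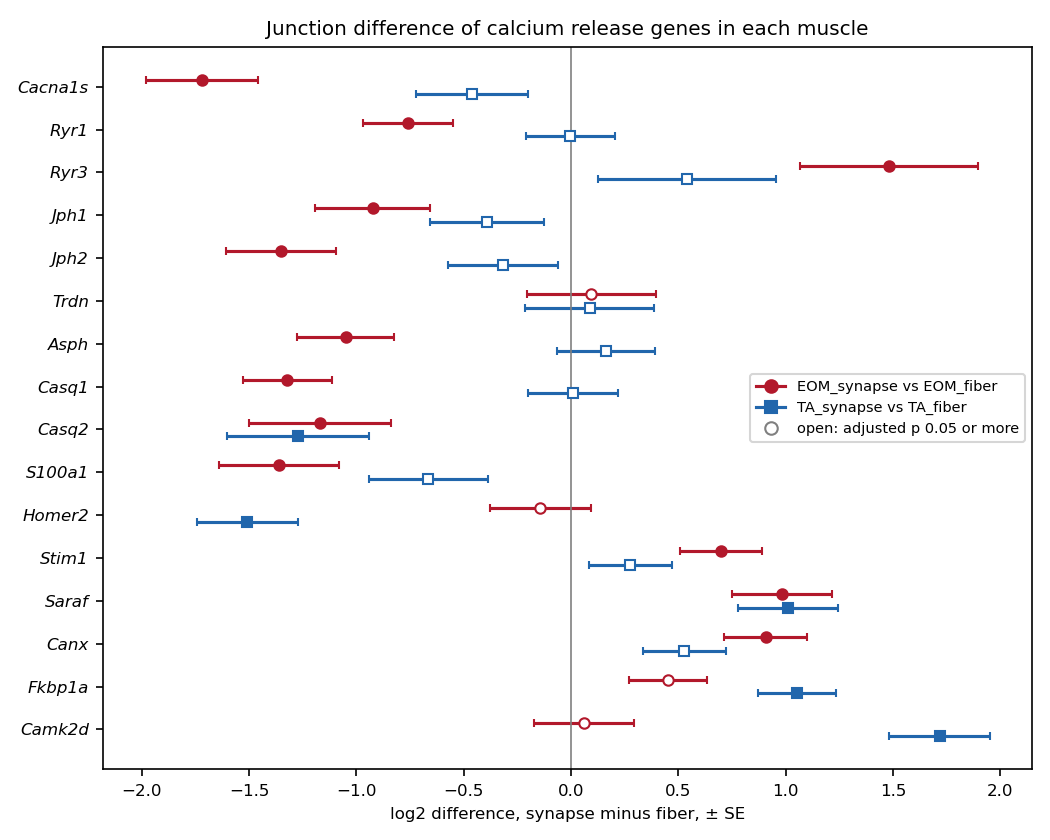
Log2 difference of synapse minus fiber in EOM and in TA for 16 genes of calcium handling, ± SE. In EOM, Cacna1s and Jph2 lie at -1.72 and -1.35, and in TA, Camk2d lies at 1.72.

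Fibre-type and other cell markers moved in the same comparisons. Of all genes, 8.4% were called as higher in EOM_fiber than in TA_fiber and 7.15% as lower. In EOM_fiber against TA_fiber, 2 of 8 slow-fibre markers were higher and 1 lower (Tnni1 1.62, Tnnt1 1.32 and Myl3 -1.78), and the summed slow-fibre level overlapped, at 14.44 to 15.41 against 13.89 to 15.27. Of the 5 measured cardiac markers 3 were higher (Myh6 3.21, Tnnt2 2.80 and Mybpc3 1.24), while Tnni3, Nppa and Actc1 were not measured. The summed cardiac level was 9.47 to 10.69 in EOM_fiber and 7.73 to 8.80 in TA_fiber. Markers of other cells and of the junction were also higher in EOM_fiber, although these regions were captured away from it. All 7 measured fibroblast markers were (12.14 to 14.10, against 10.70 to 12.60), as were 3 of 6 macrophage markers (9.31 to 10.66, against 8.56 to 9.08) and 2 of 7 endothelial markers. Of the junction markers 4 of 7 were higher (at least 10.46, against at most 9.68), and of the Schwann cell markers 2 of 6 (10.77 to 11.35, against 8.81 to 9.62), neither sum overlapping. Skeletal fibre markers were lower in 3 of 10 cases (17.51 to 17.77, against 17.85 to 17.86).

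In EOM_synapse against TA_synapse, where Casq1 and Ryr1 were lower, the summed skeletal fibre level was lower without overlap (17.18 to 17.48, against 17.69 to 17.84), with 3 of 10 markers called as lower. Smooth muscle markers were lower in 3 of 9 cases (11.71 to 12.14, against 12.88 to 13.29), a list that includes Des and Synpo2, which skeletal fibres express too. Schwann cell markers were higher in 2 of 6 cases (12.81 to 13.75, against 11.63 to 12.35), and 2 of 7 fibroblast markers and 2 of 5 cardiac markers were higher. Among all genes, 7.82% were called as higher in this comparison and 8.61% as lower.

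Within the muscles, 6 of 8 slow-fibre markers were lower in EOM_synapse than in EOM_fiber (12.80 to 13.78, against 14.44 to 15.41) and 4 of 8 were lower in TA_synapse than in TA_fiber (12.67 to 14.03, against 13.89 to 15.27). These are the comparisons in which Casq2 fell. Pln and Atp2a2, also known from heart and slow fibres, were not called in them. Pln differed by -0.94 in EOM and 0.01 in TA, and Atp2a2 by 0.69 in EOM and -0.15 in TA. Among all genes, 5.62% were called as higher and 4.51% as lower within EOM, and 6.7% and 3.53% within TA. Skeletal fibre markers ran from 17.18 to 17.48 in EOM_synapse, against 17.51 to 17.77 in EOM_fiber, with 1 of 10 called as lower. Schwann cell markers were higher in both junction groups, 5 of 6 each, at 12.81 to 13.75 in EOM_synapse against 10.77 to 11.35 in EOM_fiber, and at 11.63 to 12.35 in TA_synapse against 8.81 to 9.62 in TA_fiber. The part of these markers in the results was not tested.

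The patterns of Pln, Sln and Casq1 over the 16 arrays were compared with those of 10415 other genes, as the root mean square difference of log2 values after centring each gene. The closest to Pln, whose own SD was 1.506, were C19h1orf198 (0.601), Eno1 (0.604) and Arrdc3 (0.670). The closest to Sln, with an SD of 1.487, were Rab3b (0.911), Arhgap28 (0.953) and Ndp (0.956), all farther off than those of Pln. The closest to Casq1, with an SD of 0.6375, were Lrrfip1 (0.2496), Tmem147 (0.291) and Mrpl33 (0.303).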

How the data were processed

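Per the labels' protocols, RNA of each captured set was purified and amplified in 2 rounds with biotin label, the amount being set to 600 ng between the rounds, for Affymetrix rat arrays. The deposited unit is linear intensity per probe set. The authors had scaled every array to nearly the same 2% trimmed mean. No source used here names the software that summarised the probes. The number of arrays limits the precision.

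Members and gene lists were chosen with earlier results of these data known. Leaving out 57 controls, 20826 probe sets had 1 gene, 436 several and 9780 no listed gene. A pseudocount of 16 was added, log2 taken and quantile normalization applied. Probe sets had to exceed the median of their own array in 4 or more arrays, and the one with the highest mean represented its gene. One limma model (version 3.58.1, R version 4.3.3) held the means of the 4 groups and the rat as a block. P-values were adjusted over all genes by Benjamini-Hochberg. The contrast of junction effects subtracts the TA difference from the EOM difference. Only the limma step was run on simulated data, without normalization, filter or choice of probe set, and the outcome is not given here.

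Equal numbers in the titles were read as the same rat. As a check, with group means removed, the 24 pairs of arrays with equal numbers had a mean correlation across genes of 0.112 (-0.0666 to 0.245), with 16 pairs over 0.1. For 14 of 16 arrays the nearest array among the other groups carried the same number. Named genes are the 10 members, up to 4 called genes a direction from the list of 46, a fixed set of receptor and triad genes, marker genes that moved with members, and the genes closest to Pln, Sln and Casq1. Not all are printed. Alternatives covered the block, normalization, filter, pseudocount, probe set, prior, the arrays fitted, and leaving out each array and rat.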

Additional observations from a re-analysis of the deposited data

Results flagged for a closer look

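Among 136 groups of 4 arrays over 34 named genes, 5 held an array far from the other 3, and chance alone gives about 1 in 20 groups. Casq1 was 12.61 in EOM_fiber of rat 27, against 13.11 to 13.14 in the other arrays of that group. Srl was 12.57 in EOM_synapse of rat 25, against 12.34 to 12.37. Ryr3 was 4.53 in TA_fiber of rat 25, against 5.94 to 6.16. Itpr2 was 4.57 in TA_fiber of rat 27, against 6.13 to 6.38. Cacna1s was 9.11 in EOM_fiber of rat 15, against 10.05 to 10.20. The junction effect of Camk2d differed between the muscles by the interaction test, at -1.66 (EOM minus TA, adjusted p = 0.0314). This call held in only 4 of the 20 fits that left out an array or a rat (adjusted p up to 0.276).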

How the results depend on the processing

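Pln, Casq2 and Sln kept their fibre calls, Pln, Atp2a2, Casq1, Casq2 and Stim1 their junction calls between the muscles, and Casq1 its call within EOM, when any array or rat was left out. Without the rat block, 1383, 1474, 831 and 903 genes were called between the muscles in fibre and at the junction, within EOM and within TA, in that order, and 73 for the interaction. Members called were 2 in EOM_synapse against EOM_fiber and 0 in TA_synapse against TA_fiber. A random block gave 1 in the TA comparison.

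Median centring left 3 members called in EOM_fiber against TA_fiber, and 2 in EOM_synapse against EOM_fiber, with 1139 genes called in EOM_synapse against TA_synapse, 689 in EOM_synapse against EOM_fiber and 56 for the interaction. The share of calls that were higher in EOM_synapse against EOM_fiber was 79.4% median centred and 55.5% quantile normalized, and in EOM_fiber against TA_fiber 45%, 54% and, as deposited, 60.4%. The median of all genes moved from -0.0235 to 0.104 in the interaction and from -0.0389 to 0.0797 in EOM_synapse against EOM_fiber with median centring.

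Fitting only a comparison's own arrays gave 582 genes and 3 members for fibre, and 606 genes and 1 member for TA. A pseudocount of 1 gave 1 member in TA and 46 genes in the interaction. A pseudocount of 64 gave 7 members in EOM_synapse against EOM_fiber, with 14% of all genes (1461), and 218 genes and 2 members in the interaction. A robust prior gave 205 genes and 3 members there, and a filter of 8 arrays gave 1 member. No filter left 1 member in EOM_synapse against EOM_fiber. The probe set with the largest spread gave 1 in TA, and the mean of probe sets gave 2 in EOM and 1 in TA.

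Leaving out arrays or rats gave 924 to 1710 genes and 4 to 7 members in fibre, 903 to 1932 genes at the junction, 475 to 1121 genes and 1 to 4 members within EOM, 586 to 1202 genes and 0 to 2 members within TA, and 25 to 99 genes and 0 to 2 members in the interaction. Signs turned only for differences that were not called. As deposited these were -0.0477 and -0.367 for Atp2a1 in fibre and at the junction, -0.217 and -0.39 for Casq1 in fibre and in TA, -0.171 and -0.0547 for Stac3 at the junction and in TA, and -0.237 for Srl in EOM. Median centred they were -0.198 and -0.358 for Atp2a1, -0.367 and -0.424 for Casq1, -0.162 and -0.089 for Stac3, -0.113 for Srl and -0.018 for Pln in TA. With a pseudocount of 64 they were -0.00173 for Pln in TA and -0.024 for Casq2 in the interaction. With the probe set of largest spread they were -0.267 for Pln and 0.0557 for Atp2a2 in TA and -0.439 for Casq2 in the interaction, and with the mean of probe sets -0.127, 0.0463 and -0.168. Leaving out arrays or rats gave -0.0976 to 0.188 for Casq1 and -0.0652 to 0.14 for Atp2a1 between the muscles, -0.265 to 0.494 for Sln at the junction, and -0.00251 to 0.169 for Srl in EOM. In TA it gave -0.511 to 0.419 for Pln, -0.0908 to 0.111 for Casq1, -0.133 to 0.124 for Ryr1, -0.15 to 0.0622 for Srl, -0.161 to 0.0257 for Atp2a1 and -0.32 to 0.00711 for Atp2a2. In the interaction it gave -0.28 to 0.472 for Casq2 and -0.0344 to 0.226 for Srl. The cause of these changes was not tested.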
